A study of Mus musculus with 10 samples.

Results

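The genes described here encode NF-kB transcription factor subunits, IkB proteins, and a pair of ubiquitin regulators of the same pathway, measured in mouse pancreatic islets. Most of these IkB proteins hold the subunits back in the cytoplasm, whereas that of Nfkbiz is a nuclear protein. They are 10 genes of the 27665 in the deposited table, taken by symbol: Rela, Relb, Nfkb1 and Nfkb2 (subunits), Nfkbia, Nfkbib, Nfkbie and Nfkbiz (IkB proteins), Tnfaip3 and Birc3 (ubiquitin regulators). All 10 symbols were found once in the table and all 10 passed the filter on low counts. Islets came from 10 C57BL/6J mice, 8 to 10 weeks old, with 1 library per mouse. For 4 weeks 5 mice ate a western diet and the other 5 standard chow, and islets were processed directly after isolation. The chow mice shared cage 3, whereas 4 mice of the western diet were housed in cage 4 and 1 in cage 2, so diet and cage cannot be told apart. The set was proposed with the diet contrast of these libraries known. Its fold changes and calls are therefore a description, and nothing is read from how many of the 10 were called.

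NF-kB is a family of dimeric transcription factors that is held inactive in the cytoplasm by IkB proteins. Inflammatory receptors activate an IkB kinase, which marks IkB for degradation and frees dimers such as RelA with p50 (the canonical route), while the kinase NIK drives processing of p100 to p52, the partner of RelB (the noncanonical route). Several of the inhibitors are themselves NF-kB target genes, which gives the pathway its negative feedback. In islets the pathway is best known for its response to interleukin 1 and other cytokines.

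Binding motifs are shown first because the feedback inhibitors are textbook NF-kB targets. RefSeq promoter windows (GRCm38.p6, 250 bases before to 50 after each transcript start) were matched by symbol for 7 of the 10 genes, in 10 windows. The kappa-B consensus motif, searched on both strands, was found in 6 of these windows, which belong to 4 genes: Nfkb2, Nfkbia, Nfkbie and Tnfaip3. Over all 32851 windows 4.51% hold it. The motif was chosen after the sequences had been seen, so nothing is read from the difference. Some genes also have more windows than others, and overlapping windows of Nfkb2 share a copy. A match is a run of letters and not a shown binding site. The windows below are 30 bases long with the match in capitals, written 5′ to 3′ on the strand of the gene, and the last one is the whole 250 bases before the start of Nfkbia with its match in capitals.
Nfkb2, chr19:46304688-46304717: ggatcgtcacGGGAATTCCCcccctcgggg
Nfkb2, chr19:46304716-46304745: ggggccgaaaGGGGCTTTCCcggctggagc
Nfkb2, chr19:46305695-46305724: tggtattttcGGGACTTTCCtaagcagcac
Nfkbie, chr17:45555584-45555613: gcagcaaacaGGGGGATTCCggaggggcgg
Tnfaip3, chr10:19015516-19015545: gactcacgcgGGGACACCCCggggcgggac
Tnfaip3, chr10:19015403-19015432: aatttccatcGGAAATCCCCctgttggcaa
Nfkbia, chr12:55492648-55492897: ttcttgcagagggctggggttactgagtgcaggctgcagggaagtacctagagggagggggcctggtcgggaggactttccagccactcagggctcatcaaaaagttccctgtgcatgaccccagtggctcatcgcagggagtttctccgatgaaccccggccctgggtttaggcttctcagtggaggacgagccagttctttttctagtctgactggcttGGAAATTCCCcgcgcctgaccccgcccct

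The match in the third Nfkb2 sequence has the letters of the classical site in the immunoglobulin kappa enhancer, which 0.155% of all windows hold. It lies 11 to 20 bases after 1 annotated start, and the overlapping window of the next start holds the same copy. In Nfkbia the match ends 20 bases before the start. In Tnfaip3 one match ends 116 bases and the other 3 bases before the start. Windows of Rela, Nfkbib and Birc3 held no match to the consensus in these letters.

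Total counts ran from 16532518 to 23902681 per library. Each of the 10 genes had between 55 counts (Nfkbie, cage 4 mouse 2) and 6063 counts (Nfkbia, chow mouse 2) in a library. The labelled tissue was checked on 12 islet endocrine genes, whose summed level was 261328 to 300455 CPM (counts scaled to an equal library size, with TMM factors) in every library. The western diet library of cage 4 mouse 1 stood apart in 10 lymphocyte markers, with a summed level of 36.2 CPM against 8.22 to 13.2 CPM in the other western diet libraries and 7.07 to 17.0 CPM on chow. Without it, Nfkb2 (-0.78, edgeR adjusted p = 0.0931) and Nfkbia (-1.10, 0.0948) were again not called, and Nfkbiz was called (-0.64, 0.0151), on the log2 scale. Relb, Nfkbie, Tnfaip3 and Birc3 are given without it further on. P-values measure the spread between mice of these cages. Errors after ± are SDs over the 5 mice of a diet, and for log2 fold changes (western diet over chow) they are SEs.

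Nfkbia was the most abundant of the 10 genes per gene length, and the order below it differed in places between the diets. On chow the FPKM (the deposited level, scaled for gene length and library size) was 103 ± 48.7 for Nfkbia, 47.1 ± 5.27 for Nfkbiz, 15.4 ± 0.732 for Rela and 10.2 ± 3.48 for Tnfaip3. It was 9.52 ± 0.937 for Nfkbib, 7.30 ± 0.348 for Nfkb1 and 6.76 ± 2.22 for Nfkb2. Relb (3.54 ± 0.811), Birc3 (2.86 ± 0.511) and Nfkbie (1.61 ± 0.132) were lowest. Among neighbours in the chow order, the ranges over mice overlapped for Rela with Tnfaip3, Tnfaip3 with Nfkbib, Nfkb1 with Nfkb2, Nfkb2 with Relb, and Relb with Birc3. Within single mice, Relb was above Birc3 in 5 of 5 chow mice, Tnfaip3 was above Nfkbib in 3 of 5 and Nfkb1 above Nfkb2 in 3 of 5. The order on both diets rests on the deposited gene lengths. That of Nfkb1, 12061 bases, equals all its annotated exon bases, and that of Nfkb2 differs from the annotation, as given below. By CPM, which is not scaled for length, Nfkb1 (88.0 on chow) lay above Rela (41.7).

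**Figure D1:**
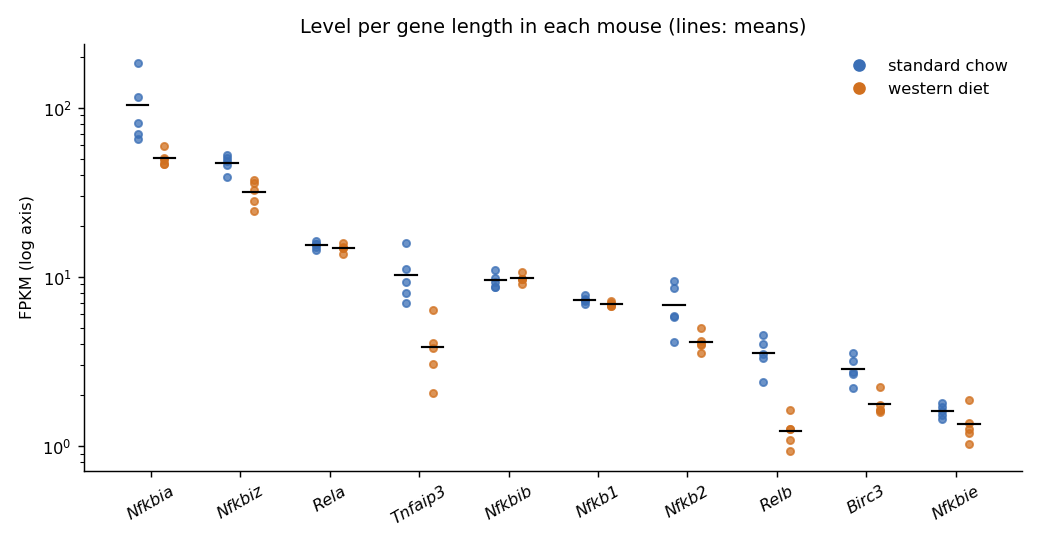
FPKM of the 10 genes in each mouse on a log axis, ordered by the chow mean; points are mice (5 per diet) and short lines are means. Nfkbia (103 on chow, 50.1 on western diet) and Nfkbiz (47.1 and 31.6) lie above Rela (15.4 and 14.8), and Relb goes from 3.54 to 1.23.

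On western diet Nfkbia (50.1 ± 5.24 FPKM) and Nfkbiz (31.6 ± 5.46) were again first and second, followed by Rela (14.8 ± 0.807), Nfkbib (9.76 ± 0.583), Nfkb1 (6.88 ± 0.215) and Nfkb2 (4.12 ± 0.513). No ranges of neighbours overlapped among these down to Nfkb1 and Nfkb2. Tnfaip3 (3.86 ± 1.61), Birc3 (1.77 ± 0.272), Nfkbie (1.34 ± 0.316) and Relb (1.23 ± 0.257) followed, and each of these overlapped with the gene above it. Tnfaip3 was thus the fourth level on chow and the seventh on western diet, and Relb the eighth and the tenth.

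Of the subunit genes, Relb fell on western diet, Nfkb2 was lower on average without passing the test, and Rela and Nfkb1 were not called. Relb (ENSMUSG00000002983, GRCm38 chromosome 7, 19606217 to 19629438), which encodes the transactivating subunit of the noncanonical route, had 13.6, 15.5, 12.8, 17.6 and 9.23 CPM in chow mice 1 to 5. It had 6.29, 4.89, 4.24 and 3.64 CPM in western diet mice 1, 2, 4 and 5 of cage 4 and 4.86 CPM in the mouse of cage 2. All 5 western diet libraries lay below all 5 chow libraries. The fitted level was 64.9% lower, a log2 fold change of -1.51 ± 0.17 with an edgeR adjusted p = 9.46e-05. In RNA from whole islets, fewer cells of a type and less RNA per cell cannot be told apart.

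Nfkb2 (ENSMUSG00000025225, chromosome 19, 46304737 to 46312090) encodes p100, the precursor of p52 that also holds RelB back. It had 19.3, 31.2, 18.9, 28.3 and 13.5 CPM in chow mice 1 to 5, and 16.3, 13.0, 13.7 and 13.3 CPM in western diet mice 1, 2, 4 and 5 of cage 4 with 11.6 CPM in cage 2. Chow mouse 5 lay inside the range of the western diet. At -0.71 ± 0.22 on the log2 scale it was not called (edgeR adjusted p = 0.0713), and it was called without chow mouse 5 (-0.85, edgeR adjusted p = 0.00714). In GENCODE M21 the exons of Nfkb2 share 299 bases with Psd and 531 with a noncoding RNA, both on the other strand. Nfkb2 is the only one of the 10 genes whose deposited coordinates differ from GENCODE M21, where its exons hold 4584 bases against a deposited gene length of 3289, so the shared bases may lie outside the counted gene. No source used here says whether counting used strand, and without it such reads cannot be told apart. Psd itself was at 74.4 ± 8.32 CPM (chow) and 67.3 ± 3.39 CPM (western diet), with an edgeR adjusted p of 0.171.

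Rela (ENSMUSG00000024927, chromosome 19, 5637483 to 5648130), the main transactivating subunit of the canonical route, ranged from 38.9 to 44.0 CPM in chow mice and from 36.8 to 43.5 CPM in western diet mice. Its log2 fold change was -0.05 ± 0.06, with an edgeR adjusted p of 0.597. Nfkb1 (ENSMUSG00000028163, chromosome 3, 135584655 to 135691547), which encodes p105 and its product p50, ranged from 82.6 to 94.0 CPM in chow mice and from 80.5 to 86.8 CPM in western diet mice, -0.08 ± 0.05 on the log2 scale with an edgeR adjusted p of 0.286. These ranges overlapped for both genes.

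**Figure D2:**
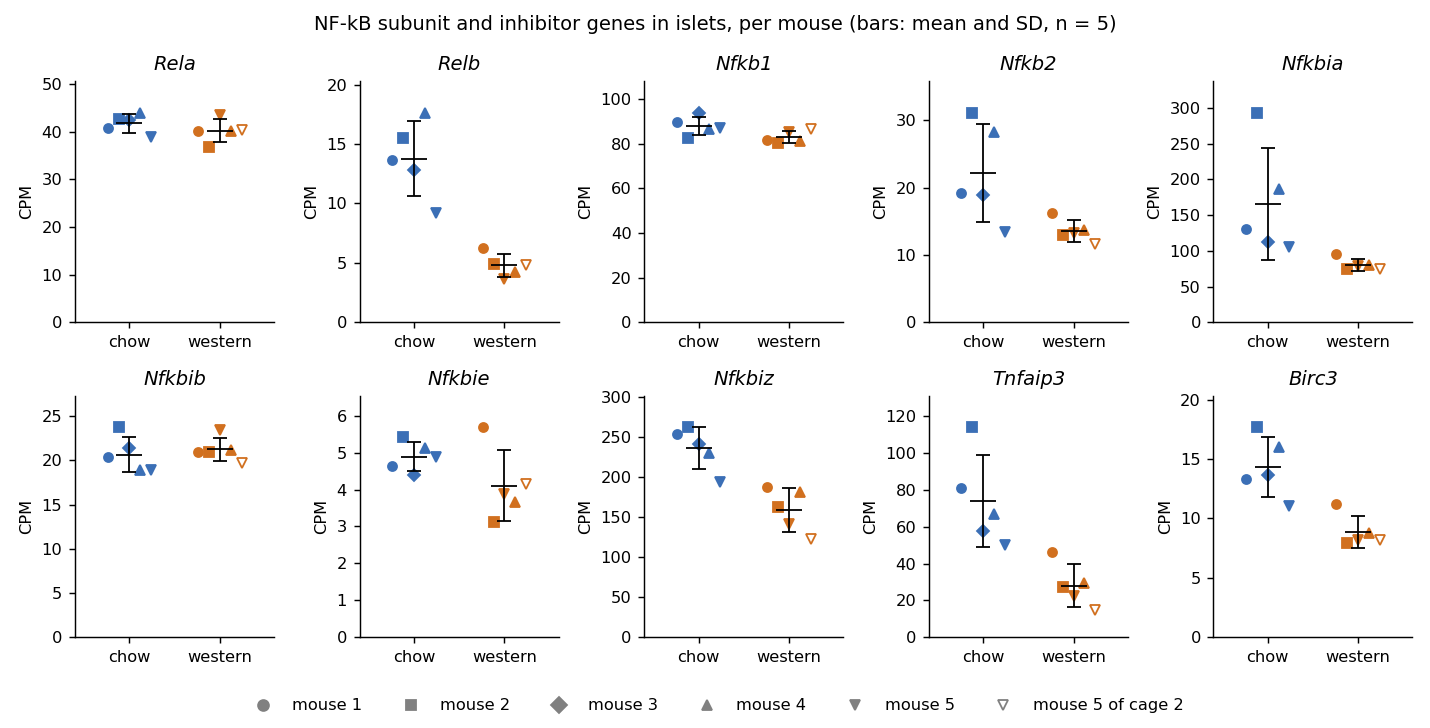
CPM of each gene in each of the 10 mice; symbols mark the mouse number within its cage, the open symbol the western diet mouse of cage 2, and bars the mean and SD (n = 5 per diet). The diets do not overlap for Relb, Nfkbia, Nfkbiz and Tnfaip3, and Rela, Nfkb1 and Nfkbib lie at like levels.

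Ratios within a library show the same split in 1 number per mouse. Relb over Rela in FPKM was 0.0838 ± 0.0194 on western diet (0.0585 to 0.110) and 0.229 ± 0.0436 on chow (0.166 to 0.280), with no overlap. Nfkb2 over Nfkb1 was 0.601 ± 0.0857 on western diet and 0.935 ± 0.342 on chow, where the ranges overlapped. These ratios use the contrast that the genes were chosen on and were not tested. Their size, unlike their difference between the diets, rests on the deposited gene lengths.

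Of the IkB genes, Nfkbiz fell, Nfkbia separated the diets without passing the test, and Nfkbib and Nfkbie were not called. Nfkbia (ENSMUSG00000021025, chromosome 12, 55489410 to 55492647), which encodes IkB alpha, the main fast feedback inhibitor, had 131, 294, 112, 187 and 105 CPM in chow mice 1 to 5. It had 95.0, 74.7, 80.8 and 79.2 CPM in western diet mice 1, 2, 4 and 5 of cage 4 and 74.2 CPM in cage 2. Every western diet library was below every chow library, and chow mouse 2 was far above the other chow mice. On the log2 scale the difference was -1.04 ± 0.29, with an edgeR adjusted p of 0.0611. Without chow mouse 2 it was -0.73 and called (edgeR adjusted p = 0.0396), and without chow mouse 5 it was -1.16 and called (edgeR adjusted p = 0.047).

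Nfkbiz (ENSMUSG00000035356, chromosome 16, 55811375 to 55838899) encodes IkB zeta, a nuclear protein that works with p50 on secondary response genes. It had 254, 262, 241, 229.6 and 194 CPM in chow mice 1 to 5, and 187, 163, 181 and 141 CPM in western diet mice 1, 2, 4 and 5 of cage 4 with 122 CPM in cage 2. The diets did not overlap, although the highest western diet mouse was close to chow mouse 5. Nfkbiz was called, at -0.57 ± 0.12 on the log2 scale (edgeR adjusted p = 0.0189). Without chow mouse 1 the call was lost (-0.55, edgeR adjusted p = 0.0509).

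Nfkbib (ENSMUSG00000030595, chromosome 7, 28758251 to 28767512), which encodes IkB beta, a more slowly degraded inhibitor, ranged from 18.9 to 23.7 CPM in chow mice and from 19.7 to 23.4 CPM in western diet mice. Its log2 fold change, 0.04 ± 0.08 with an edgeR adjusted p of 0.807, was the only one above 0 among the 10 genes. Its exons share 314 bases with Ccer2 and 42 bases with Sirt2 on the other strand. Nfkbie (ENSMUSG00000023947, chromosome 17, 45555703 to 45563169), which encodes IkB epsilon, had 5.68, 3.13, 3.65 and 3.88 CPM in western diet mice 1, 2, 4 and 5 of cage 4, 4.14 CPM in cage 2 and 4.40 to 5.42 CPM on chow. In 4 of 5 western diet mice it was below all chow mice, and mouse 1 of cage 4 was above all of them. With all mice it was at -0.25 ± 0.16 on the log2 scale (edgeR adjusted p = 0.336), and at -0.40 without that mouse (edgeR adjusted p = 0.119).

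Both ubiquitin regulators fell. Tnfaip3 (ENSMUSG00000019850, chromosome 10, 19000910 to 19015657) encodes A20, a ubiquitin-editing enzyme that shuts off signalling below inflammatory receptors. It had 80.9, 114, 57.6, 66.8 and 50.2 CPM in chow mice 1 to 5, and 46.1, 27.2, 29.4 and 22.3 CPM in western diet mice 1, 2, 4 and 5 of cage 4 with 14.8 CPM in cage 2. The diets did not overlap, by a narrow margin between cage 4 mouse 1 and chow mouse 5. The fitted difference was -1.40 ± 0.34 on the log2 scale (edgeR adjusted p = 0.036). It lay between -1.67 and -1.19 with any 1 mouse left out, and the call was lost in 7 of these 10 fits, those without western diet mouse 2, 4 or 5 of cage 4 or without chow mouse 1, 2, 3 or 4 (edgeR adjusted p = 0.056 to 0.0852).

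Birc3 (ENSMUSG00000032000, chromosome 9, 7848699 to 7873186), which encodes cIAP2, a ubiquitin ligase of receptor complexes that also restrains NIK, had 13.4, 17.7, 13.7, 15.98 and 11.1 CPM in chow mice 1 to 5. It had 11.2, 7.96, 8.81 and 8.18 CPM in western diet mice 1, 2, 4 and 5 of cage 4 and 8.16 CPM in cage 2. Only mouse 1 of cage 4 reached into the chow range. Birc3 was at -0.69 ± 0.13 on the log2 scale (edgeR adjusted p = 0.00296), and at -0.79 without that mouse.

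**Figure D3:**
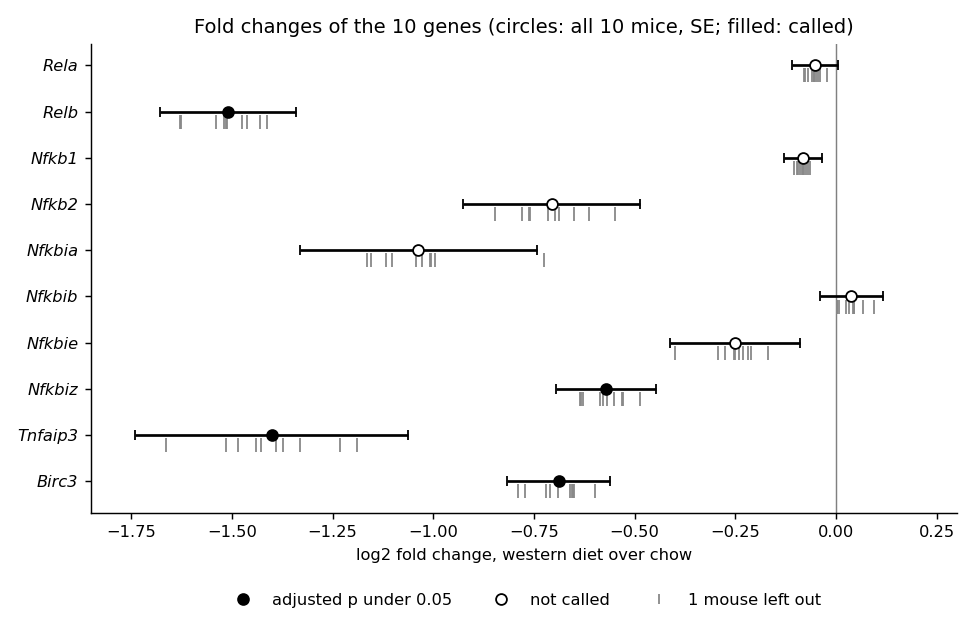
Log2 fold change of western diet over chow for the 10 genes: circles with SE from all 10 mice, filled where the edgeR adjusted p is under 0.05, and grey ticks with 1 mouse left out in turn. Relb (-1.51) and Tnfaip3 (-1.40) are lowest, and the highest tick of Nfkbiz is at -0.49.

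In all, 4 of the 10 genes were called lower and 0 higher, where 5.5% of the 15104 tested genes were called lower and 5.27% higher. The libraries did not overlap, with western diet lower, for 4 of the 10 genes and for 4.42% of tested genes (8.85% in either direction). The count of 4 became 2 without chow mouse 1 (Relb and Birc3) and 6 without chow mouse 5. It was 4 without the library of cage 4 mouse 1, where Relb was at -1.63 and Tnfaip3 at -1.67. By the authors' deposited table, an adjusted p-value under 0.05 with a lower level was given to 6 of the 10 genes and to 3.68% of its 27577 genes with a p-value. The additional genes there were Nfkb2 (log2 fold change -0.71, the authors' adjusted p = 0.00212) and Nfkbia (-1.04, the authors' adjusted p = 0.00594). The 27577 genes include many that failed the filter on low counts used here, which all 10 genes passed. The 3.68% is thus on a wider base than the 5.5% of 15104 tested genes.

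The spread between mice differed among the 10 genes. Nfkb1 had a coefficient of variation (SD over mean of CPM) of 3.29% on western diet and 4.78% on chow, where counting error alone gives 2.48% and 2.42%. Nfkbia had 10.4% on western diet and 47.2% on chow, where counting gives 2.51% and 1.76%. Tnfaip3 had 41.5% and 34.0%, against 4.28% and 2.64% from counting. Nfkbie, the gene with the fewest counts, had 23.5% on western diet and 8.16% on chow, and counting alone gives 11.1% and 10.2%.

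The same mice were often at the ends of the range. Chow mouse 2 was the highest chow library for 7 of the 10 genes, which were all but Rela, Relb and Nfkb1. Chow mouse 5 was the lowest chow library for 8 of the 10, which were all but Nfkb1 and Nfkbie. On western diet mouse 1 of cage 4 was highest for 7 genes, and the mouse of cage 2 was lowest for 5 (Nfkb2, Nfkbia, Nfkbib, Nfkbiz and Tnfaip3). Summed immediate early and heat shock genes had the same lowest libraries, chow mouse 5 (17886 CPM) and the cage 2 mouse (10270 CPM). Their highest libraries were others, chow mouse 1 (22095 CPM) and mouse 2 of cage 4 (12647 CPM).

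Across the 10 libraries, the genes whose profile lay nearest to that of Relb were Prr7, Npas4, Rel, Arc and Rnd3. Nearness was the root mean square difference of log2 CPM after centring each gene, 0.261 for Prr7, 0.305 for Npas4, 0.314 for Rel, 0.33 for Arc and 0.338 for Rnd3, among 10388 protein-coding genes of at least 5 CPM. Npas4 and Arc are activity-induced genes, and Rel encodes c-Rel, a further NF-kB subunit. For Tnfaip3 the nearest were Rabepk (0.308), the stress-induced transcription factor gene Atf3 (0.328), Klf6 (0.331), Rnd3 (0.346) and Gem (0.369). Within the 10 genes, Relb and Tnfaip3 lay 0.395 apart, Rela and Nfkb1 0.0782, and Nfkb2 and Birc3 0.158. All these profiles include the diet difference.

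The wider pathway was read from 94 other genes in 6 lists by role, of which 91 were in the table and 72 were tested. Of these 10 fell and 1 rose (13.9% lower, against 5.5% of all tested genes), and their median log2 fold change was -0.02 against 0.01 over all tested genes. Of 11 kinases 0 were called, with Ikbkb (IKK beta) at 0.04, Chuk (IKK alpha) at -0.12, Ikbkg (NEMO) at -0.02 and Map3k14 (NIK) at -0.05 on the log2 scale. The 2 kinases of at least 1 CPM with the smallest p were Map3k8 (-0.60, edgeR adjusted p = 0.11) and Tbk1 (0.15, 0.114). The summed level of the kinase list was 425 ± 8.25 CPM (chow) and 417 ± 7.93 CPM (western diet), with an exact two-sided permutation p of 0.175, or 0.407 adjusted over 14 lists (0.0317 before adjustment without chow mouse 4).

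Among 15 adaptors and ubiquitin ligases Sharpin, a subunit of the linear ubiquitin ligase, went from 21.6 ± 1.26 CPM (chow) up to 26.9 ± 2.08 CPM (western diet), 0.32 on the log2 scale (edgeR adjusted p = 0.0086). Xiap, an apoptosis inhibitor related to Birc3, fell by 0.21 on the log2 scale (edgeR adjusted p = 0.0229). Birc2, which encodes cIAP1 and is the closest relative of Birc3 in this list, was not called (0.11, edgeR adjusted p = 0.295), nor were Myd88 (0.21, 0.204) and Rbck1 (-0.11, 0.225). None of 13 tested negative regulators was called, although 1 had an edgeR adjusted p close to the threshold, the RNase gene Zc3h12a (-0.75, 0.0568). The ubiquitin ligase gene Itch was at 0.17 (edgeR adjusted p = 0.0725). Cyld, a deubiquitinase that acts beside A20, was at -0.05 (edgeR adjusted p = 0.566).

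Of 15 tested ligands and receptors 3 fell and 0 rose. These were Il1rap, the accessory chain of the interleukin 1 receptor (-0.41, edgeR adjusted p = 0.024), Tlr2, a receptor for bacterial lipopeptides (-0.40, 0.0074), and Tnfrsf11a, which encodes RANK (-0.40, 0.0339). The receptor Il1r1 was abundant, at 670 ± 90.5 CPM (chow) and 843 ± 156 CPM (western diet), without a call (0.33, edgeR adjusted p = 0.194). The receptor gene Tnfrsf1b was at 0.74 (edgeR adjusted p = 0.0816). Tnf was at 1.42 ± 0.344 CPM (chow) and 0.904 ± 0.361 CPM (western diet), Il1b at 2.15 ± 0.366 and 1.63 ± 0.629 CPM, and neither was called (edgeR adjusted p = 0.181 and 0.35).

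Rel was the only called gene among the 3 remaining Rel and IkB genes. It had 18.9, 17.3, 14.6, 13.95 and 9.82 CPM in chow mice 1 to 5, and 8.27, 6.31, 7.57 and 6.00 CPM in western diet mice 1, 2, 4 and 5 of cage 4 with 6.95 CPM in cage 2. The diets did not overlap, and chow mouse 5 was again the lowest chow library. It was at -1.08 ± 0.15 on the log2 scale (edgeR adjusted p = 0.000633). The summed level of the 3 genes was 26.3 ± 3.92 CPM (chow) and 15.7 ± 1.26 CPM (western diet), of which Rel held 14.9 and 7.02 CPM. The exact two-sided permutation p of this sum was 0.00794, or 0.037 adjusted over the 14 lists. The list was chosen with earlier results of these data known, so this p is a description. The IkB genes outside the 10, Nfkbid (-0.52, edgeR adjusted p = 0.0636) and Bcl3 (-0.33, 0.157), were not called.

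**Figure D4:**
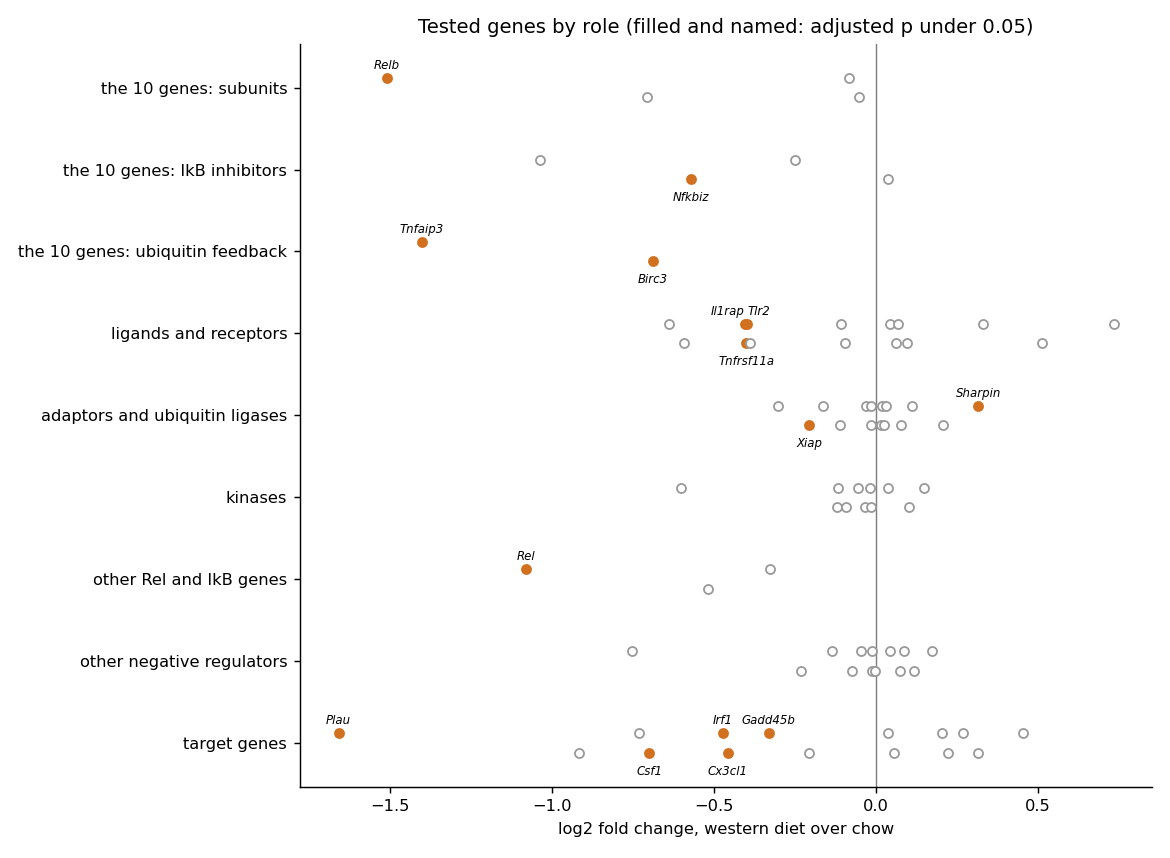
Log2 fold change of western diet over chow for each tested gene, by role: the 10 genes in the top 3 rows and 72 other pathway genes below, filled and named where the edgeR adjusted p is under 0.05. No kinase and no further negative regulator is filled, and of the filled points only Sharpin (0.32) lies above 0.

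Of 15 tested target genes 5 fell and 0 rose. Csf1, the macrophage growth factor, went from 19.6 ± 1.44 CPM (chow) down to 12.1 ± 1.65 CPM (western diet), -0.70 on the log2 scale (edgeR adjusted p = 0.000302). The chemokine gene Cx3cl1 (-0.46, edgeR adjusted p = 0.0058), the interferon regulatory factor gene Irf1 (-0.47, 0.0155), Plau (-1.66, 0.0021), which encodes urokinase, and Gadd45b (-0.33, 0.0453) fell as well. Plau was low, at 0.50 to 1.31 CPM on western diet and 1.94 to 4.05 CPM on chow. The antioxidant gene Sod2, a well known target, was not called (0.06, edgeR adjusted p = 0.464), nor were the apoptosis regulator gene Cflar (0.31, 0.193) and the chemokine gene Cxcl2 (-0.73, 0.0988). A further 13 target genes in the table were too low to test, among them Cxcl1, Ccl2, Il6 and Nos2. Il6 had at most 4 counts in a library, and Sele at most 3. The summed target list was 422 ± 39.2 CPM (chow) and 401 ± 33.0 CPM (western diet), with an exact two-sided permutation p of 0.397, or 0.617 adjusted over the 14 lists.

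All 14 lists were chosen with earlier results of these data known, so the p-values of their sums are a description and support nothing. Markers of other cells and early response genes stood beside these results as follows. Immediate early and heat shock genes separated the diets: 16 of 21 fell and 0 rose, and their sum was 17886 to 22095 CPM in chow mice and 10270 to 12647 CPM in western diet mice (exact permutation p = 0.00794, the smallest that 5 against 5 mice can give, 0.037 adjusted over the 14 lists). The called genes with the smallest p were Jun (-1.02), Egr1 (-0.68), Dnajb1 (-1.77), Dusp1 (-0.67), Ier2 (-0.59) and Btg2 (-0.48), while Fosl2 (-0.60) and Hspb1 (-0.85) were not called. A few abundant genes weigh most in this sum: Fos, Fosb, Jun and Egr1 held 3566, 3430, 3355 and 2693 of 19937 CPM on chow. Fos (-0.47) and Fosb (-0.85) were called as well. Of 13 tested macrophage markers 1 fell and 0 rose (C1qa, -0.51), and the list's sum was 72.8 to 118 CPM on western diet and 85.8 to 110 CPM on chow. The highest value is that of cage 4 mouse 1, and without it the log2 ratio of mean sums went from -0.10 to -0.21 (exact permutation p = 0.0952). C1qa weighs much in this sum, with 29.0 of 91.3 CPM on western diet and 41.4 of 98.0 CPM on chow. Of the 13 tested macrophage markers only 5 had a log2 fold change below 0, and the median was 0.02. Endothelial markers, with 1 of 8 lower (Kdr, -0.28), summed to 358 to 414 CPM on western diet and 415 to 457 CPM on chow (exact permutation p = 0.00794, adjusted 0.037). The ranges nearly touched, at 413.7 and 414.9 CPM, and the log2 ratio of mean sums was only -0.11. Kdr had 94.5 of 397 CPM on western diet and 114 of 429 CPM on chow. Of the 8 markers 6 had a log2 fold change below 0, and the rest lay above 0. Mesenchymal markers (1 of 6 lower, Pdgfrb, -0.44) summed to 116 to 147 CPM and 117 to 235 CPM. Duct markers (2 of 7 lower, Krt19, -2.64, and Muc1, -1.01) summed to 367 to 393 CPM and 369 to 432 CPM. Krt19 was low, at 0.24 to 1.07 CPM on western diet and 1.95 to 6.69 CPM on chow. Muc1 was low too, at 0.97 to 2.24 CPM and 2.12 to 5.00 CPM, so the sums say little on either gene. None of 8 acinar markers was called, and their sum was 851 to 5524 CPM on western diet and 670 to 2688 CPM on chow. Of 12 islet endocrine genes Iapp rose (0.19) and Slc2a2, the glucose transporter gene, fell (-0.54). Of 10 lymphocyte markers 9 were too low to test, and Cd79a was not called (-0.02). The macrophage marker Itgam was near 0, with at most 7 counts in a library. What part these lists have in the levels of the 10 genes was not tested.

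**Figure D5:**
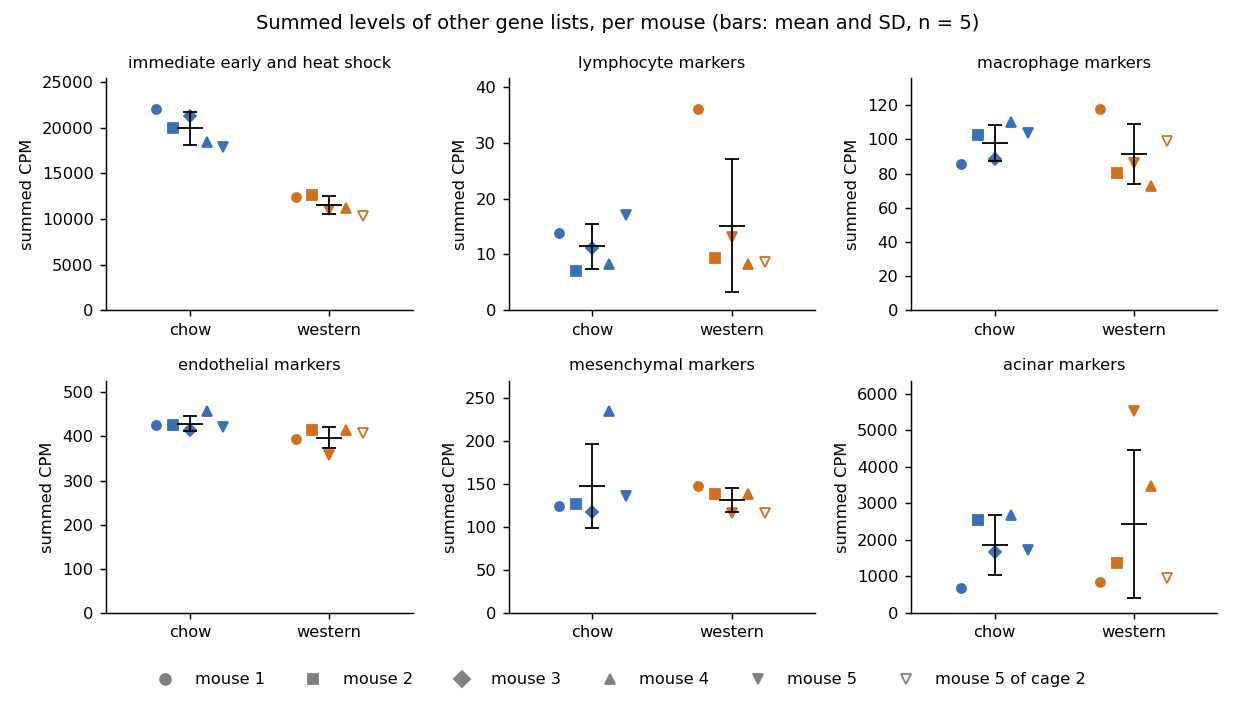
Summed CPM of 6 gene lists in each mouse, with mean and SD (n = 5 per diet). Immediate early and heat shock genes separate the diets (10270 to 12647 CPM against 17886 to 22095 CPM), and western diet mouse 1 of cage 4 stands above the rest in lymphocyte markers (36.2 CPM).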

How the data were processed

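RNA from islets of 10 mice was sequenced, 1 library per mouse. The read counts per gene, deposited by the authors, are raw whole numbers, as the file headers and the values show. The FPKM values deposited by the authors equal the counts divided by the table's gene length and a library constant. The authors also deposited log2 fold changes and p-values, unadjusted and adjusted, of their own comparison. Per the submitters' processing notes, the tools were STAR 2.5, HTSeq 2 and DESeq2 and the build mm10 (GRCm38), without roles. No source used here gives the strand setting of the counting. A further 10 columns of normalized values were not used.

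All 27665 genes entered edgeR 4.0.16 (R 4.3.3). filterByExpr with a minimum count of 10 left 15104, TMM factors scaled the libraries, and a robust quasi-likelihood test compared the diets without covariates. P-values were adjusted by Benjamini-Hochberg over all tested genes and called under 0.05. CPM use the TMM factors. SE is the log2 fold change over the root of F. Alternatives were upper quartile and RLE factors, a mean of 5 CPM, no filter, DESeq2 1.42.0, limma-voom (limma 3.58.1), no robust moderation, a replicate block by mouse number, and fits that left out mice. Summed lists were compared by exact permutation tests.

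The 10 genes, the lists and the named genes were chosen with earlier results of these data known, and the motifs after the promoter sequences had been seen. From each list at most 6 called and 2 uncalled genes of at least 1 CPM with the smallest p were to be named, with the 5 nearest profiles of Relb and of Tnfaip3, and defining markers near 0. Of the uncalled genes of the cell type lists only Cd79a is named, and Itgam as a marker near 0. Genes named beyond that rule (Ikbkb, Chuk, Ikbkg, Map3k14, Birc2, Cyld, Il1r1, Il1b and Sod2) were chosen for their role after values were seen. Fos and Fosb are named for their part in a sum. The count test was tested on simulated counts of the 15104 genes for western diet against chow, where it recovered 21 of 50 genes changed 1.25-fold and 46 of 50 changed 1.5-fold. It called 13 of 14904 unchanged genes. The changed genes were drawn only from those with a mean of at least 5 CPM, so the recovery does not cover lower genes such as Nfkbie.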

Additional observations from a re-analysis of the deposited data

Results flagged for a closer look

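In 48 groups of 5 libraries (the 10 genes and 14 summed lists, per diet), 5 had a highest or lowest library whose gap to the next exceeded 0.71 of the group's range. Chance gives this in about 1 in 20 such groups. Birc3 on western diet was 11.2 CPM in mouse 1 of cage 4 and 7.96 to 8.81 CPM in the others. The same library was high in lymphocyte markers, at 36.2 CPM against 8.22 to 13.2 CPM, and low in the summed ligands and receptors, at 695 CPM against 961 to 1058 CPM. With all mice the log2 ratio of the summed ligands and receptors, western diet over chow, was 0.28 (two-sided exact permutation p = 0.0794, adjusted over 14 lists 0.244). Most of this sum is 1 uncalled gene, Il1r1, with 670 of 791 CPM on chow and 843 of 957 CPM on western diet, and of the 15 tested genes of the list 3 fell and 0 rose. Chow mouse 4 was high in mesenchymal markers, at 235 CPM against 117 to 136 CPM, and in endothelial markers, at 457 CPM against 415 to 427 CPM.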

How the results depend on the processing

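Relb and Birc3 were called lower under every alternative tried, with log2 fold changes of -1.63 to -1.41 and -0.79 to -0.60. No gene of the 10 changed direction in any of 189 alternative values, and 170 of these kept their side of the threshold. The Tnfaip3 call was lost with no filter (-1.40, adjusted p = 0.0519) and without the cage 2 mouse and chow mouse 1 together (-1.20, 0.101), beside the 7 fits with 1 mouse left out. Nfkb2 and Nfkbia passed when genes under 5 CPM were dropped (-0.72 and -1.05), with DESeq2 (-0.71 and -1.04) and without robust moderation (-0.71 and -1.04). Leaving out 1 mouse gave -0.85 to -0.55 for Nfkb2, -1.16 to -0.73 for Nfkbia, -0.64 to -0.49 for Nfkbiz and -1.67 to -1.19 for Tnfaip3. The number of the 10 genes called lower was 2 to 6 with 1 mouse left out and 3 to 6 otherwise. Pathway genes outside the 10 called higher were 1 to 2 and called lower 7 to 10 with 1 mouse left out.

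Mouse numbers in the titles were used as a replicate block although nothing says that they pair mice. No western diet mouse has the number 3, so chow mouse 3 was alone in its block and gave nothing to the diet difference. The western diet mice with the number 5, of cage 4 and of cage 2, shared a block with chow mouse 5. Over genes, deviations of same-numbered mice correlated between -0.126 and 0.0525. With the block 841 genes were called in place of 1627, 2 pathway genes were called higher in place of 1 and 7 lower in place of 10, and 4 of the 10 genes remained called. With 1 mouse left out the number called was 938 to 1813, and 938 without chow mouse 1, 985 and 1055 without western diet mice 4 and 5 of cage 4 and 1050 without chow mouse 3. The cause was not tested.

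With 1 mouse left out, 4 against 5 mice cannot give a permutation p under 0.0159, which the lists that passed with all mice reached, so these fits say nothing on their stability. Unadjusted p fell under 0.05 for the kinase sum without chow mouse 4 (0.0317), the islet endocrine sum without mouse 4 of cage 4 (0.0476) or chow mouse 2 (0.0317), and the ligand and receptor sum without mouse 1 of cage 4 (0.0159), the library that stood low in that same sum. The log2 ratio of sums changed sign with 1 mouse left out for adaptors (-0.0034 with all mice, -0.014 to 0.0071). Larger ratios changed sign through 1 library for lymphocyte (0.40, and -0.22 to 0.59, without mouse 1 of cage 4), mesenchymal (-0.17, and -0.24 to 0.060, without chow mouse 4) and acinar markers (0.39, and -0.16 to 0.61, without mouse 5 of cage 4). Computing FPKM from counts with TMM factors moved none of 20 mean levels by more than 1 SD. Counts limit Nfkbie and Relb most, with 55 and 60 in the lowest library.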
